A study of Mus musculus with 14 samples.

Results

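Fos, Fosb, Fosl1, Fosl2, Jun, Junb, Jund, Egr1, Egr2 and Atf3, the immediate early transcription factor genes of the AP-1, Egr and Atf3 families, were followed in mouse spleen cells enriched for or depleted of follicular dendritic cells (FDC). FDC are stroma of the B cell follicle and keep antigen on their surface for B cells. A probe set was taken as a member where the array annotation gave it 1 gene symbol and that symbol was one of the 10. This found all 10 genes, by 19 of the 29131 probe sets with 1 symbol, which stand for 15964 genes in all. RNA was measured on oligonucleotide arrays of 3 designs, called sets A, B and C after the letters in the sample names. FDC-D denotes primary splenocytes depleted of FDC and FDC-E primary splenocytes enriched for them. FDC-D samples 1 and 2 and FDC-E samples 1, 2 and 3 were on sets A and C, and FDC-D 1 and 2 and FDC-E 2 and 3 on set B. The sources used here do not give strain, age, treatment, the isolation or the number of animals. Whether the replicates are biological is thus unknown, and a p-value covers the spread of these arrays, possibly technical in part.

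AP-1 is a dimer of leucine zipper proteins, made by a Jun protein paired with another Jun, a Fos or an Atf protein, that binds DNA and sets the rate of transcription. Egr proteins are zinc finger factors that bind GC-rich sites. Immediate early genes are transcribed within minutes of a growth factor, antigen or stress signal without new protein synthesis, through factors such as Srf with its Elk partners and Creb that are already in the cell. In the spleen they are known for their response to antigen receptors in lymphocytes, and many of them are also induced when tissue is taken apart into single cells.

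Promoters are shown for Fos, Jun and Atf3, members that rose in FDC-E, and for Egr2, which did not pass the test, because they hold the response elements found among the members. They are the 250 bases before the gene start, 5′ to 3′ on the strand of the gene, from RefSeq on build GRCm38.p6. Of the 10 genes 8 had an entry, Egr1 and Fosl1 had none, and the Egr2 window is 1 of 5. Capitals mark the motifs found by the search described next.
Fos promoter, chr12:85473640-85473889, plus strand: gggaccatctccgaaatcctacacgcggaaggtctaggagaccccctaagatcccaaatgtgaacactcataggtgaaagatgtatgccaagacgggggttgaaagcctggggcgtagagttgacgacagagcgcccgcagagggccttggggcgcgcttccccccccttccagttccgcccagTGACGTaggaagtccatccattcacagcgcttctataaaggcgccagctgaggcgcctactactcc
Jun promoter, chr4:95052223-95052472, minus strand: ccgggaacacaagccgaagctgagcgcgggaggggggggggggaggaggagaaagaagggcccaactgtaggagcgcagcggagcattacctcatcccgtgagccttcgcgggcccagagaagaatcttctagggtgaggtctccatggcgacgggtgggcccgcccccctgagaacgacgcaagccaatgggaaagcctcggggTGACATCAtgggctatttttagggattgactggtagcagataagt
Atf3 promoter, chr1:191183334-191183583, minus strand: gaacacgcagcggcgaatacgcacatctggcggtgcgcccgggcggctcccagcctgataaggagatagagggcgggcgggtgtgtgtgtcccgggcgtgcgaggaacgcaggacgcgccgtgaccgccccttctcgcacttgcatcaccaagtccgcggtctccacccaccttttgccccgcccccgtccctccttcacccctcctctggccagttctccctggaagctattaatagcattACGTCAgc
Egr2 promoter, chr10:67537619-67537868, plus strand: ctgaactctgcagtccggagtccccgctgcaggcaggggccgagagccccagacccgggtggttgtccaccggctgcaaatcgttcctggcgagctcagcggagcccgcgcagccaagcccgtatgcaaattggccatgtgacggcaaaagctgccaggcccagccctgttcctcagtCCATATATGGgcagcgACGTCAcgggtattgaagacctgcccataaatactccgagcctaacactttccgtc

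In Fos the capitals mark TGACGT, the core of the cAMP response element, at bases -66 to -61 from the start, in Atf3 the same core on the other strand at -8 to -3, and in Jun TGACATCA, the AP-1 variant through which Jun is known to act on its own gene, at -45 to -38. In Egr2 they mark a CArG box, the site of Srf, at -72 to -63, and the core TGACGT on the other strand at -56 to -51. Both strands were searched. TGACGT was present in Fos, Atf3 and Egr2, in 5 of 12 member windows, and in 6.47% of 32851 windows of this length in the RefSeq table. TGACATCA was present in Jun alone among the 8 genes and in 2.93% of windows. Both were added after the sequences had been seen. A CArG box was present in Egr2 alone among the 8 genes, in 4 of 12 member windows, and in 1.47% of all windows. Egr2 windows that overlap repeat the same sites, which are counted each time. Sites further upstream than these windows, and any in Egr1 or Fosl1, were not searched for. TGACTCA, the consensus AP-1 site, TGACGTCA, the full cAMP response element that contains TGACGT, and GCGTGGGCG, an Egr site, were found in none of the member windows and in 4.46%, 1.55% and 0.536% of all windows. A match is a run of letters, and its use in these cells was not measured.

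The values are the intensities that the authors deposited. A probe set entered the test if 2 or more arrays had it brighter than the 40th percentile of that array. Differences were fitted in limma as log2(intensity + pseudocount), FDC-E minus FDC-D, with Benjamini-Hochberg adjustment over all tested probe sets of an array set, and called at an adjusted p under 0.05. A fold change is the antilog of this difference and is smaller than the ratio of intensities for dim probe sets. Of the 19 member probe sets 15 were tested, at least 1 for each gene, and none of them had its FDC-D mean below the filter. On set A, 7 of 12 tested member probe sets were called higher in FDC-E, where 23.1% of all 7895 tested were. On set B it was 2 of 3, against 19.4% of 7786. None was called lower in FDC-E by limma, also at an unadjusted p under 0.05, against 17.9% on set A and 17.0% on set B. Over all of set A, 1824 were called higher and 1416 lower, a split that turned to 1447 and 2042 with quantile normalization, 1510 and 1888 with the arrays scaled to a common trimmed mean, and 1461 and 1966 to a common median. The 9 member probe sets called higher became 10, 8 and 8 under these scalings. The FDC-E arrays all lay above the FDC-D arrays for 8 of 12 member probe sets on set A (34.7% of all tested) and 3 of 3 on set B (34.4%), and all below for none (28.6% and 33.3%). The 1 member probe set on set C, of Jun, was too dim to be tested. Taking the brightest tested probe set of each gene, 7 of the 10 genes were called higher and 3 were not called. Their median log2 fold change was 0.49, beside 0.01 over all tested probe sets.

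**Figure D1:**
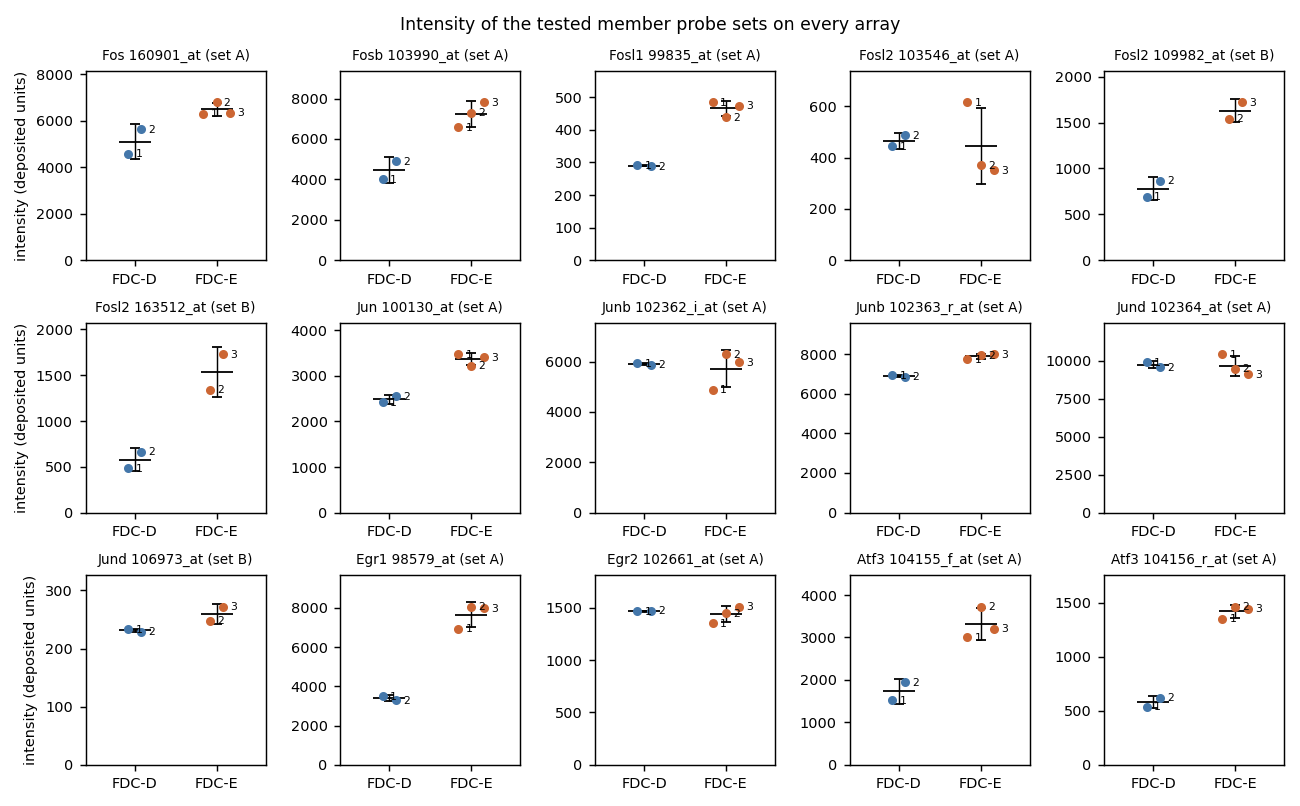
Intensity in deposited units of the 15 tested member probe sets on each FDC-D (blue) and FDC-E (orange) array, with sample numbers beside the points. Bars give the mean and SD. All enriched points of Egr1, Atf3, Fosb, Fosl1, Jun and the set B probe sets of Fosl2 lie above the depleted ones, and those of Egr2, Jund on set A and Junb 102362_i_at overlap with them.

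Egr1 encodes the zinc finger factor best known as a readout of growth factor and antigen receptor signals. Its probe set 98579_at read 3501 and 3276 on the FDC-D arrays and 6935, 8060 and 7974 on the FDC-E arrays. The lowest enriched array was thus far above the highest depleted one. Egr1 rose 2.22-fold between means of 3389 ± 159 (SD, n = 2) and 7656 ± 626 (SD, n = 3), a log2 fold change of 1.15 with SE 0.0905 (limma, adjusted p = 2.16e-05). Taken alone, FDC-E 1, 2 and 3 lay 1.02, 1.23 and 1.21 above the depleted mean on the log2 scale. The other Egr1 probe set, 161802_i_at, was dim on every array that gave it a value, at 36.9 to 38.2, had no value on FDC-E 2, and was not tested.

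Egr2 encodes a relative of Egr1 known for roles in T cell tolerance and in myelin formation. Probe set 102661_at read 1467 and 1473 in FDC-D and 1356, 1452 and 1512 in FDC-E. The enriched arrays lay on both sides of the depleted ones. The log2 fold change was -0.03, with a 95% interval of -0.21 to 0.15 (limma, adjusted p = 0.807). Among the other Egr relatives and the Nab corepressors that bind Egr proteins, 4 genes were tested and none was called by limma, also at an unadjusted p under 0.05. Of all tested probe sets 17.5% were called higher and 14.7% lower.

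Atf3 encodes a stress-induced leucine zipper factor that can dimerise with Jun proteins and often represses its targets. Probe set 104156_r_at read 540 and 620 in FDC-D and 1355, 1466 and 1448 in FDC-E. The enriched arrays lay within a narrow band above both depleted arrays. Atf3 rose 2.26-fold here, with means of 579.9 ± 56.6 (SD, n = 2) and 1423 ± 59.6 (SD, n = 3), with log2 fold change 1.18 and SE 0.0843 (limma, adjusted p = 1.27e-05). Probe set 104155_f_at read 1523 and 1943 in FDC-D against 3005, 3726 and 3207 in FDC-E, and rose 1.87-fold (limma, adjusted p = 0.000608). The third, 161645_r_at, read 113 to 140 with no value on FDC-E 2 and was too dim to be tested. The letters f, r and i in these names mark probe sets whose probes could not all be chosen as unique to 1 sequence under the design rules of the maker.

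Fos encodes the founding member of the Fos family, a protein that cannot bind DNA without a Jun partner. Probe set 160901_at read 4590 and 5632 in FDC-D and 6314, 6803 and 6359 in FDC-E. Both fractions were thus many times above the 40th percentile of their arrays (176.1 to 198.7), and the gap between the groups was smaller than the distance between the depleted arrays. Fos rose 1.27-fold, with means of 5111 ± 737 (SD, n = 2) and 6492 ± 270 (SD, n = 3), with log2 fold change 0.35 and SE 0.0991 (limma, adjusted p = 0.0236). Without FDC-D 1 the adjusted p was 0.239 at a log2 fold change of 0.20, and with the arrays scaled to a common trimmed mean or median it was 0.0531 and 0.0795. The second Fos probe set, 161716_at, read 46.3 to 61.3 with no value on FDC-E 2 and was not tested.

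Fosb encodes a close relative of Fos with a splice form that lacks the activating end. Probe set 103990_at read 4002 and 4913 in FDC-D and 6579, 7303 and 7815 in FDC-E. The groups did not overlap. Fosb rose 1.61-fold, with means of 4458 ± 644 (SD, n = 2) and 7232 ± 621 (SD, n = 3), with log2 fold change 0.69 and SE 0.111 (limma, adjusted p = 0.00134).

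Fosl1 encodes Fra-1, a Fos relative without an activating domain that accumulates later than Fos. Probe set 99835_at read 291 and 288 in FDC-D and 484, 438 and 473 in FDC-E. The enriched arrays were all above the depleted ones, which differed little from each other. Fosl1 rose 1.46-fold, with means of 289.3 ± 1.78 (SD, n = 2) and 465.3 ± 24 (SD, n = 3), with log2 fold change 0.55 and SE 0.07 (limma, adjusted p = 0.000357).

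Fosl2 encodes Fra-2, another late Fos relative, and its 3 probe sets differed. On set B, 109982_at read 693 and 869 in FDC-D and 1540 and 1721 in FDC-E, and 163512_at read 487 and 665 against 1344 and 1727. Both had enriched arrays above the depleted ones. They rose 1.99-fold (limma, adjusted p = 2.79e-05) and 2.46-fold (adjusted p = 4.02e-05), with log2 fold changes of 0.995 (SE 0.0988) and 1.30 (SE 0.136). On set A, 103546_at read 443 and 487 in FDC-D and 615, 370 and 351 in FDC-E. FDC-E 1 lay above both depleted arrays and FDC-E 2 and 3 below them. Its log2 fold change was -0.09, with a 95% interval of -0.51 to 0.34 (adjusted p = 0.763). Without FDC-E 1 it fell, by 0.30 on the log2 scale (limma, adjusted p = 0.00879), so that samples 2 and 3 gave opposite directions for Fosl2 on sets A and B. FDC-E 1 was not among the set B arrays.

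**Figure D2:**
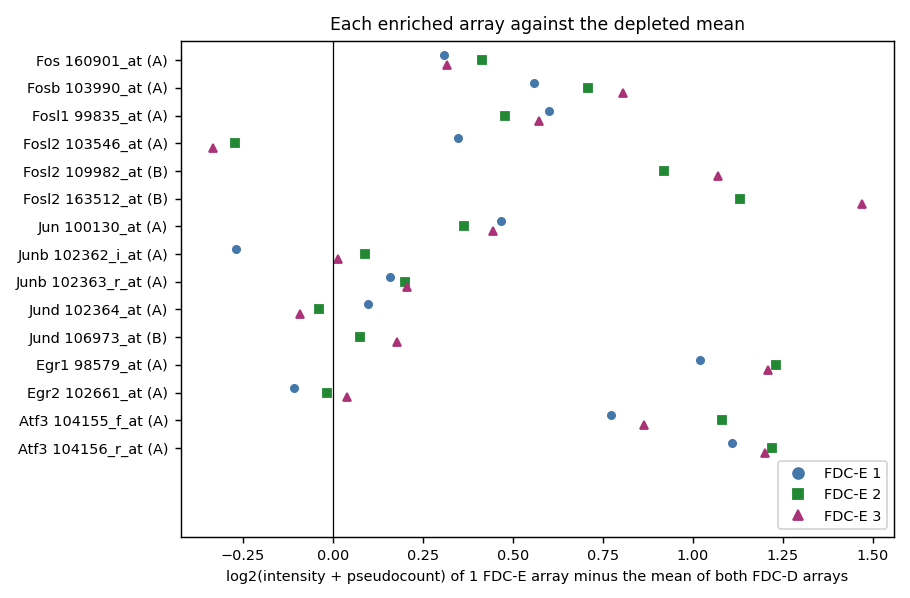
Each point is 1 FDC-E array minus the mean of both FDC-D arrays, on log2(intensity + pseudocount), for the 15 tested member probe sets (array set in brackets). All 3 enriched arrays lie right of 0 for Fos, Fosb, Fosl1, Jun, Egr1, Atf3 and Junb 102363_r_at, while Fosl2 103546_at has FDC-E 1 at 0.35 and FDC-E 2 and 3 at -0.27 and -0.33.

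Jun encodes the central AP-1 subunit, which can pair with itself or with a Fos protein. Probe set 100130_at read 2420 and 2555 in FDC-D and 3472, 3225 and 3415 in FDC-E. The groups were apart by more than the spread within either. Jun rose 1.34-fold, with means of 2487 ± 95.8 (SD, n = 2) and 3371 ± 130 (SD, n = 3), with log2 fold change 0.43 and SE 0.0771 (limma, adjusted p = 0.00258). The probe set on set C, 171444_r_at, read 63.7 and 65.6 in FDC-D and 61.8 to 78.4 in FDC-E and was not tested.

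Junb encodes a Jun protein that tempers Jun activity in many settings and serves lymphocyte differentiation. Probe set 102363_r_at read 6949 and 6863 in FDC-D and 7729, 7952 and 7981 in FDC-E. The groups did not overlap, but the log2 fold change of 0.19 (95% interval 0.03 to 0.35) missed the threshold (limma, adjusted p = 0.0582). It passed under quantile normalization, at 0.25 (adjusted p = 0.00916), and with array weights, at 0.20 (0.0066). On set A these weights were 5.63 for FDC-E 3 against 0.246 and 0.472 for FDC-E 1 and 2, so the weighted fit leaned on FDC-E 3. With the arrays scaled to a common trimmed mean or median the log2 fold change was 0.10 (0.251) and 0.09 (0.391). Probe set 102362_i_at read 5928 and 5885 in FDC-D and 4882, 6286 and 5967 in FDC-E. FDC-E 1 was the lowest array and FDC-E 2 the highest, and the log2 fold change was -0.06 (95% interval -0.31 to 0.20, adjusted p = 0.739).

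Jund encodes the Jun protein with the steadiest expression, often present in resting cells. Probe set 102364_at read 9891 and 9551 in FDC-D and 10404, 9468 and 9119 in FDC-E. The groups overlapped, with a log2 fold change of -0.01 (95% interval -0.20 to 0.18; limma, adjusted p = 0.936). On set B, 106973_at read 233 and 229 in FDC-D and 248 and 272 in FDC-E, a log2 fold change of 0.13 (95% interval -0.01 to 0.26; adjusted p = 0.137).

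**Figure D3:**
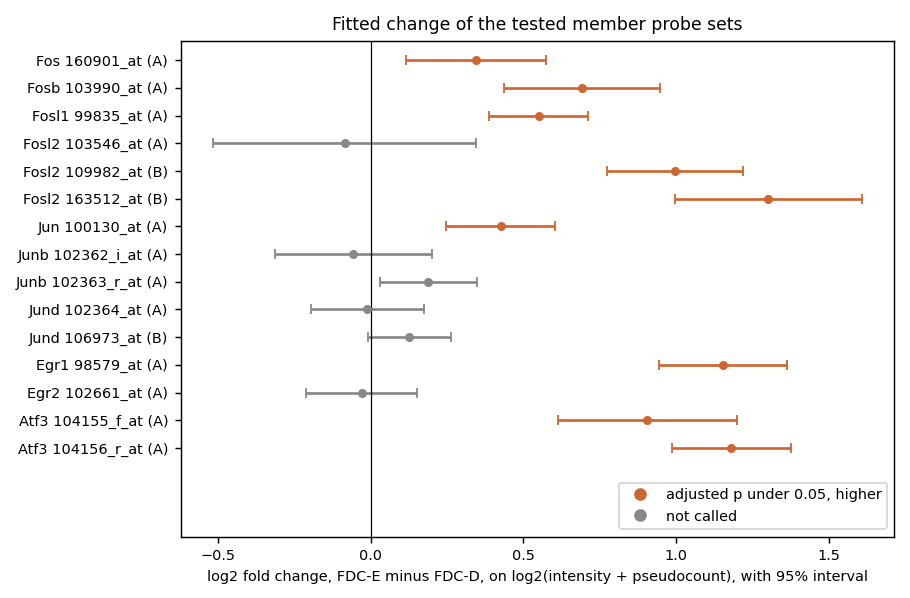
Log2 fold change of each tested member probe set, FDC-E minus FDC-D, with its 95% interval from limma; orange marks an adjusted p under 0.05. The largest change is that of Fosl2 163512_at on set B, at 1.30, and the smallest call is that of Fos, at 0.35, which is lost without FDC-D 1 or with either scaling to the median array.

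The genes whose pattern over the 5 arrays of set A was nearest to that of a member were found from the mean absolute difference of log2 values, each probe set centred on its own mean. For Egr1 they were Wsb1 (0.0227), Notch3 (0.0284) and Lamp2 (0.0295). Their log2 fold changes were 1.16, 1.15 and 1.21, beside 1.15 for Egr1. For Fos they were Acod1 (0.0233), Hoxb5 (0.0274) and Psmg1 (0.0357). For the brightest Junb probe set, 102363_r_at, they were Agtrap (0.00818), Ndufv1 (0.0108) and Rcl1 (0.012). With 5 arrays from FDC-D and FDC-E, a like change between the fractions brings genes near each other. Shared regulation was not tested.

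The other leucine zipper genes, from the Batf, Jdp2, Atf, Creb, Maf, Cebp, Bach and Nfe2l groups, included more rises than falls. Of 21 tested genes 12 rose, 3 fell and 6 were not called, with a median log2 fold change of 0.30. Over the 3 array sets 17.5% of tested probe sets were called higher and 14.7% lower. These shares count probe sets, while the related gene lists here and below count genes. Most genes of these lists were taken from set A, where 23.1% of tested probe sets were called higher and 17.9% lower. Of the 12 rises 1, that of Cebpd, came from a probe set whose FDC-D mean lay below the 40th percentile of the arrays, so that it was tested only through its enriched level and no fold is given. Cebpd, an acute phase factor, read 146.8 ± 35.3 (SD, n = 2) in FDC-D and 1546 ± 184 (SD, n = 3) in FDC-E. Jdp2, a repressor that pairs with Jun, rose 4-fold and Maff, a small Maf protein, 3.8-fold. Bach2, a repressor that holds B cells and T cells in a resting state, fell 4.88-fold, with means of 794.8 ± 24.2 (SD, n = 2) in FDC-D and 121.6 ± 22.6 (SD, n = 3) in FDC-E. These changes passed limma at adjusted p = 9.29e-07 for Cebpd, 7.34e-08 for Jdp2, 4.68e-06 for Maff and 1.51e-06 for Bach2. The rises numbered 9 with quantile normalization or either scaling to the median array.

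Genes listed as other immediate early genes moved in both directions. The list was broad, and its falls included Btg1, Klf2 and Txnip. Whether each listed gene acts as an immediate early gene in these cells was not tested. Of 39 tested, 24 rose, 10 fell and 5 were not called, with a median log2 fold change of 0.51. Among all tested probe sets 17.5% were called higher and 14.7% lower. The matricellular genes Ccn2 and Ccn1, targets of Srf and Yap in stroma, rose (limma, adjusted p = 5.38e-07 and 2.88e-07) from FDC-D levels below the 40th percentile of the arrays. These 2 genes were tested only through their enriched level, and no fold is given. Ccn2 read 114.7 ± 14 (SD, n = 2) in FDC-D and 1935 ± 321 (SD, n = 3) in FDC-E. Ccn1 read 32.09 ± 0.575 (SD, n = 2) in FDC-D and 754.8 ± 92 (SD, n = 3) in FDC-E. Id3, an inhibitor of E proteins, rose 4.23-fold (adjusted p = 2.07e-06). Cd69, the early activation antigen of lymphocytes, fell 4.8-fold on set B, with means of 1105 ± 29.2 (SD, n = 2) and 170.5 ± 67.8 (SD, n = 2; adjusted p = 1.1e-06).

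Of 19 tested kinases and factors that act upstream of the members 3 rose, 5 fell and 11 were not called, beside 17.5% higher and 14.7% lower over all tested probe sets. Their median log2 fold change was 0.02, and it was -0.08 with quantile normalization and -0.05 and -0.06 with scaling to the trimmed mean or the median. Map3k1, which feeds the Jun kinases, fell 2.39-fold (limma, adjusted p = 3.37e-05) and Map2k1, which activates Erk, 1.6-fold (adjusted p = 0.000474). Mapkapk2, a kinase below p38, rose 1.61-fold (adjusted p = 0.000125). Elk3, a partner of Srf, rose (adjusted p = 0.000711) from 145.4 ± 14.5 (SD, n = 2), again below the 40th percentile, to 271.8 ± 30.6 (SD, n = 3). Of the 5 falls 1, that of Rps6ka5, had its FDC-E mean below the 40th percentile and was tested only through its FDC-D level. Rps6ka5 read 181 ± 12.8 (SD, n = 2) in FDC-D and 124 ± 6.12 (SD, n = 2) in FDC-E.

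Of 21 tested genes that are reported targets of AP-1 or Egr factors, 16 rose, 1 fell and 4 were not called. Their median log2 fold change was 0.67, beside 0.01 over all tested probe sets, of which 17.5% were called higher and 14.7% lower. The chemokine gene Cxcl1 rose 12.1-fold, the growth factor gene Pdgfa 7.21-fold and the adhesion molecule gene Icam1 4.73-fold (limma, adjusted p = 6.65e-08, 6.61e-07 and 5.61e-07). The chemokine gene Ccl2 rose too (adjusted p = 6.65e-08) and read 69 ± 4.43 (SD, n = 2) in FDC-D and 1285 ± 73.9 (SD, n = 3) in FDC-E. It was 1 of 2 rises on this list with an FDC-D mean below the 40th percentile, for which no fold is given. Of 12 heat shock genes 6 rose, 2 fell and 4 were not called, beside the same shares of 17.5% and 14.7%. Hspa1a and Hspa1b, the inducible Hsp70 genes, rose 12.5-fold and 11.4-fold and Hspa8 1.48-fold (adjusted p = 3.93e-07, 1.3e-06 and 0.00147). Hspb1, a small heat shock protein gene, rose on set C (adjusted p = 8.91e-08) and read 27.51 ± 0.955 (SD, n = 2) in FDC-D, below the 40th percentile, and 350.1 ± 19.7 (SD, n = 3) in FDC-E.

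**Figure D4:**
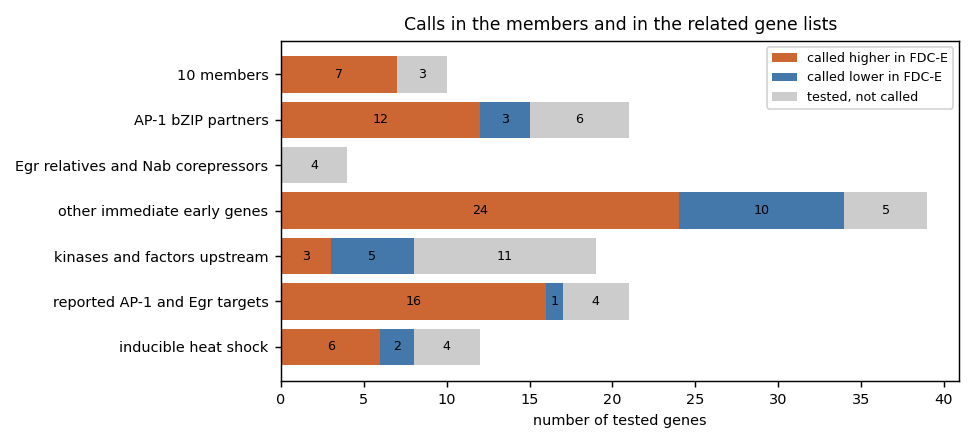
Number of tested genes called higher (orange), called lower (blue) or not called (grey) in FDC-E, for the 10 members and 6 related gene lists, each gene by its brightest tested probe set. The members have 7 rises and no falls, and the other immediate early genes 24 rises and 10 falls. Over all tested probe sets 17.5% were called higher and 14.7% lower.

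Cell type markers moved between the fractions too. The calls below stand beside 23.1% of all tested probe sets on set A called higher and 17.9% lower. Part of the marker calls had a lower group mean below the 40th percentile, so they were tested only through the other group. Over the 3 array sets these were 9 of 18 endothelial, 7 of 10 stromal, 2 of 9 FDC, 4 of 7 megakaryocyte and 1 of 2 plasma cell rises. Among the falls they were 5 of 11 for T cells, 3 of 8 for NK cells and 2 of 5 for neutrophils. On set A the summed intensity of 17 endothelial markers was 3654 to 3843 on the FDC-D and 26060 to 28750 on the FDC-E arrays, with 16 of them called higher. For 13 markers of fibroblasts and reticular stroma it was 4224 to 4301 against 18830 to 20830 (10 called higher). For 12 FDC markers it was 8327 to 9446 against 23750 to 28150 (9 called higher, and 2 lower), and for 14 macrophage markers 13140 to 15740 against 27630 to 31900 (12 called higher). The sums went down from 31060 to 31790 to a range of 11220 to 13680 for 12 B cell markers (11 called lower), and from 10860 to 11420 to a range of 4926 to 5671 for 12 T cell markers (11 called lower). For 8 NK cell markers it went from 4834 to 5206 down to 1791 to 2082 (7 called lower), and for 12 neutrophil markers from 8615 to 9271 down to 5006 to 5900 (5 called lower). For 6 megakaryocyte and platelet markers it was 1747 to 1812 in FDC-D and 2568 to 2832 in FDC-E (4 called higher). Of these 4 Vwf, which is also on the endothelial list, went from 100.8 ± 0.592 (SD, n = 2) to 578.6 ± 27.9 (SD, n = 3). Vcam1 is on both the FDC and the macrophage list. Cr2 and Fcer2a, the 2 FDC markers called lower, are also on the B cell list. For 7 dendritic cell markers it was 6761 to 7394 in FDC-D and 4844 to 5498 in FDC-E (1 called higher, 4 lower), for 7 plasma cell markers 8270 to 8451 and 5412 to 6992 (2 higher, 2 lower), and for 7 erythroid markers 6911 to 7990 and 8319 to 10700 (1 higher). No marker in these lists was at 0. Lyve1, Lum, Pdpn, Ncr1, Xcr1, Mpo, Mmp8 and Ly6g were below the 40th percentile on every array, so they were summed but not tested. The part of the cell types behind these markers in the changes of the 10 genes and of the related gene lists was not tested. In such bulk samples fewer cells of a type and less RNA per cell cannot be told apart.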

How the data were processed

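Each array set came as a table of linear intensities deposited by the authors, whose summary and scaling the sources used here do not give. Sets A, B and C held 12488, 12477 and 11934 probe sets, and FDC-E 2 on set A had no value for 893 of them. Probe sets were named through the array annotation, with symbols updated by Entrez identifier. Within a set, 2%-trimmed array means differed by a factor of 1.08, 1.03 and 1.02, within the 10% allowed, so the deposited scale was kept. The array medians were higher in FDC-E on every set, on set A at 264.7 to 279.0 against 244.0 and 250.8. Scaled to a common trimmed mean, the member rises on set A were smaller, as for Fos (0.26 against 0.35) and Jun (0.34 against 0.43).

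The pseudocount was the 20th percentile of all values above 0 (88.5, 81.2 and 53.1). Array controls (66 per set) were not tested. Each set was fitted alone in limma 3.58.1 (lmFit, eBayes, trended prior) in R 4.3.3, two-sided, and the code was tested on simulated data. A gene of a list was counted by its brightest tested probe set, on the array set where that ranked highest. All member probe sets are named, up to 4 called genes of each list by size of change, and 3 genes nearest to Fos, Egr1 and Junb. The alternatives were 3 other scalings, 2 pseudocounts, 2 filters, no trend, array weights, adjustment over all sets, a replicate block and arrays left out. The members and lists were chosen with earlier results of these data known. The number of arrays limits the precision.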

Additional observations from a re-analysis of the deposited data

How the results depend on the processing

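Of 270 repeats of the 15 member fits under other settings, 242 kept the direction and the side of the threshold. The 2 other filters, the fit without trend and the adjustment over all sets leave the log2 fold change unchanged. Those repeats could change the side of the threshold but not the direction. The repeats are thus not independent of each other. The calls of Egr1, Atf3, Fosb, Fosl1, Jun and both Fosl2 probe sets of set B held under all of them, and that of Fos was lost in 3. The member probe sets called higher numbered 8 to 9 and those called lower 0 to 1 when 1 array was left out. The 1 called lower was Fosl2 103546_at, without FDC-E 1 of set A. The same 1 was called lower with array weights, a fit that on set A leaned on FDC-E 3. This probe set also fell with FDC-E 2 or 3 as the only enriched array, and 1 Junb probe set fell with FDC-E 1. Probe sets called on set A numbered 3240, and 2028 to 3670 with 1 array left out, the low counts coming without FDC-D 1 (2028) or 2 (2038). On set C they numbered 1341, and 808 to 1315 with 1 array left out, 808 without FDC-D 2 and 882 without FDC-E 3. With FDC-E 1, 2 or 3 alone they were 814, 740 and 811. On set B they were 2838, and 1978 to 2491 with 1 array left out.

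The replicate block, with the sample number as a term, gave 2812 calls on set A and 865 on set C, and could not be fitted on set B, where the groups share 1 number. Same-numbered samples had deviations correlated at 0.03 and 0.06 on set A and at -0.31 and -0.15 on set C. With 2 FDC-D arrays per set, whose deviations mirror each other, these values cannot tell a pairing from none.

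Reversals concern uncalled probe sets. Fosl2 103546_at ranged from -0.302 to 0.038 with 1 array left out, above 0 without FDC-E 2 (0.0079) or 3 (0.038). The replicate block gave the same 0.038 as the fit without FDC-E 3. The log2 fold change was 0.35 with FDC-E 1 alone, against -0.27 and -0.33 with FDC-E 2 or 3 alone. Junb 102362_i_at ranged from -0.128 to 0.052 with 1 array left out, above 0 without FDC-E 1, turned to 0.0089 with array weights and to 0.089 and 0.014 with FDC-E 2 or 3 alone, and was called at -0.27 with FDC-E 1 alone. Jund 102364_at ranged from -0.064 to 0.03, above 0 without FDC-D 1 (0.015) or FDC-E 2 (0.0031) or 3 (0.03), and turned to 0.097 with FDC-E 1 alone. Under the block Jund 102364_at was again at 0.03, the value without FDC-E 3. Egr2 ranged from -0.063 to 0.0105, above 0 without FDC-E 1, and turned to 0.0285 with array weights and 0.0385 with FDC-E 3 alone. The cause was not tested. A fit with 1 array in a group assumes that it varies like the other group.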
